A study of Mus musculus with 5 samples.

Results

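The cells described here are ependymal cells of the newborn mouse hippocampus, 255 of the 30699 cells kept from 5 single-cell RNA libraries. They were selected on measured counts. A cell was taken when it held at least 4 unique molecular identifiers (UMIs, each a counted transcript molecule) of Foxj1, Ccdc153, Tmem212 and Rsph1 together, with at least 2 of these 4 genes detected, and 0 UMIs of Folr1 and Kcnj13, a pair of choroid plexus genes. Values of these 6 genes describe the choice of cells and test nothing. The Trem2 knockout group (KO, Trem2 -/-) held the libraries KO 2 and KO 3, and the wild-type group (WT, Trem2 +/+) held WT 1, WT 2 and WT 3. All pups were at postnatal day 1, and each library pooled the hippocampi of 2 pups, so single animals cannot be read out. Replicate 2 of each genotype came from 2 males and the others from 1 female and 1 male, per the sample descriptions, although the sex field of the labels names both sexes for every library. Nothing in the labels says how the Trem2 allele was made. Trem2 is a surface receptor of microglia, and the study's title names neuronal bioenergetics in development as its question.

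Ependymal cells line the brain ventricles and move cerebrospinal fluid with tufts of motile cilia. In the mouse they descend from radial glia, are mostly born before birth and grow their cilia in the days and weeks after it. The geminin-like factors Gmnc and Mcidas, acting with E2F proteins, start a program that runs through Myb, Foxj1, Trp73 and the RFX factors. Centrioles are then made in bulk on deuterosomes, bodies built on the protein Deup1, with the help of the cell-cycle machinery, and each centriole anchors an axoneme of tubulin, dynein arms, radial spokes and inner proteins. Intraflagellar transport (IFT) particles and the BBSome, a coat complex for ciliary cargo, carry material along the cilium.

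The 5 libraries held 40345 barcodes and 60024793 to 91205882 UMIs each. A barcode counted as a cell if 500 or more genes and 1000 or more UMIs were detected and mitochondrial transcripts made up no more than 15%, which left 4716 to 8510 cells per library. Of the kept barcodes 120 occurred in more than 1 library, and no member barcode was a member in more than 1. Levels are given as CPM, a gene's UMIs scaled to 1000000 UMIs of the summed cells. Trem2 had 41 and 21 UMIs over all kept cells of KO 2 and KO 3 (0.650 and 0.316 CPM), against 1873, 1317 and 365 UMIs in WT 1, WT 2 and WT 3 (27.5, 23.2 and 4.13 CPM). Both KO libraries lay below all WT libraries. Ependymal cells held 8 Trem2 UMIs in all, none of them in KO cells, and 5 of the 8 were in a single WT cell.

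There were 30 and 36 ependymal cells in KO 2 and KO 3, against 46, 57 and 86 in WT 1, WT 2 and WT 3. The median ependymal cell had 14206 and 12772 UMIs in the KO libraries, against 14524, 18868 and 12082 in the WT libraries, and the summed members of a library held 476898 to 1364559 UMIs. Levels below are CPM over the summed cells of a class in a library. Foxj1, the forkhead factor that drives motile ciliogenesis, was at 883 and 761 CPM in KO 2 and KO 3, against 878, 597 and 845 CPM in WT 1, WT 2 and WT 3. Rsph1, a radial spoke protein, was at 1059 and 1560 CPM in the KO libraries, against 1062, 779 and 1454 CPM in the WT libraries. The genotypes overlapped for both genes, and WT 2 was lowest. Ccdc153, a coiled-coil protein of multiciliated cells, was at 174 and 625 CPM in the KO libraries, against 201, 174 and 493 CPM in the WT libraries. Tmem212, a membrane protein gene used as an ependymal marker, was at 10.48 and 338 CPM in the KO libraries, against 107, 56.4 and 268 CPM in the WT libraries. For both of these genes KO 3 and WT 3 were high and the other 3 libraries low. Foxj1 had a UMI in 98.0% and Rsph1 in 99.2% of the 255 cells, but Ccdc153 in 54.1% and Tmem212 in 34.1%.

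**Figure D1:**
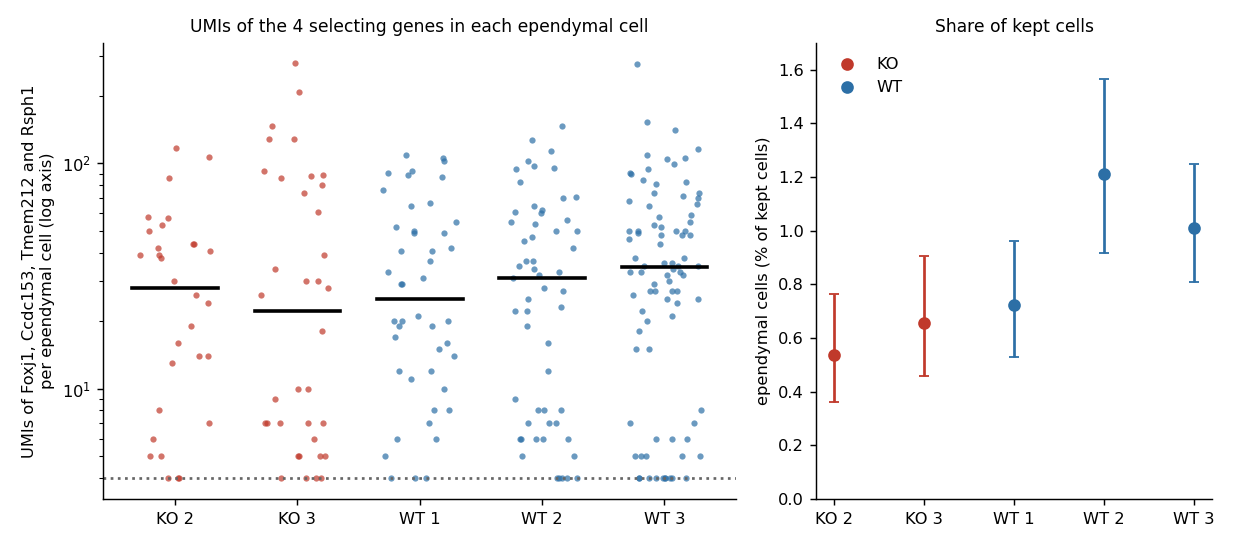
Left, UMIs of the 4 selecting genes in each ependymal cell (log axis), 1 point per cell, with the median of each library as a bar and the minimum of 4 as a dotted line. Right, ependymal cells as a percentage of kept cells, with exact 95% binomial intervals; the 2 KO libraries lie at 0.536% and 0.654%, below the 3 WT libraries.

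The selection took in a wide range of cells, and its lower end held cells with few ependymal transcripts. There were 72 cells with 4 to 9 UMIs of the selecting genes, 24 with 10 to 19, 78 with 20 to 49 and 81 with 50 or more. The 25 cells just inside the limit, with 4 UMIs, had 14.1 CPM of Deup1 and 23820 CPM of the 19 radial glia genes summed. The 25 cells just outside it, with 3 UMIs, had 18.1 CPM of Deup1 and 37870 CPM of the radial glia genes. Of the 72 cells with 4 to 9 UMIs, 30 held a UMI of the deuterosome genes Deup1, Ccno, Cdc20b, Mcidas, Ccdc78 or Gmnc, against 167 of the 183 cells with 10 or more. Most members with 10 or more selecting UMIs thus held a transcript of these deuterosome genes, which the selection did not use, and fewer than 1 in 2 of the low cells did. The low cells were also shallower, with a median of 10515.5 UMIs, against 10989, 13153 and 20721 UMIs in the 3 higher bins. Transcripts of other cell types were present in some members. The 11 microglial and macrophage genes had a UMI in 51 cells, but 3 cells held 86.1% of these UMIs. At least 10 UMIs of the list were found in 2 cells for microglia, 9 for endothelium, 11 for mural cells, 7 for erythroid cells, 4 for oligodendrocyte precursors and 4 for meningeal fibroblasts. These cells were in WT libraries except 1 of the 11 with mural genes. The 10 neuronal genes reached 10 UMIs in 69 members, 18 of them in KO libraries and 51 in WT libraries. The erythroid enzyme gene Alas2 and the choroid plexus transporter gene Slc4a5 were at 0 in every member. Reln, the marker of Cajal-Retzius cells, which also use Trp73, had 3 or more UMIs in 8 members, 6 of them among the 72 low cells. Doublet scores were high in 60 of the 255 cells (23.5%), against 6.33% of all kept cells.

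The condition on Folr1 and Kcnj13 removed more cells than it kept. It set aside 445 of the 700 cells that met the condition on the 4 selecting genes, 435 of them for Folr1 and 53 for Kcnj13. Of the 445 cells, 418 had under 100 UMIs of Ttr, the thyroid hormone carrier that fills choroid plexus epithelium, and at most 65. These 418 cells had a median of 86 UMIs of the selecting genes and 3 of Folr1. Their depth was also greater, with a median of 23318 UMIs, against 13970 UMIs and 30 selecting UMIs in the members. After each cell was thinned to 5000 UMIs, which left 242 members and 410 of the cells set aside, Ccdc153 was detected in 41.3% of the members and in 77.3% of the cells set aside. At that depth Tmem212 was detected in 24.8% of the members and in 67.6% of the cells set aside. Hdc, the histamine-forming enzyme, was detected in 30.6% of the members and in 63.9% of the cells set aside, and S100b, a calcium-binding protein of mature ependymal cells and astrocytes, in 2.48% and 14.2%. Ccdc153 and Tmem212 are selecting genes, so their shares only describe the choice of cells. The 32 dynein genes summed to 3298 ± 876 CPM in the members and 4702 ± 806 CPM in the cells set aside, whereas the deuterosome and centriole genes summed to 2345 ± 416 CPM in the members and 1893 ± 200.3 CPM in the cells set aside (SD, n = 5 libraries each). The deuterosome sum was higher in the members in each of the 5 libraries. The transcription factors were at 1027 ± 134 CPM in the members and 1009 ± 110 CPM in the cells set aside. A UMI of Folr1 is more easily found in a deeper cell, and these values are a description with no test. No member had 100 or more UMIs of Ttr, and the highest value was 25.

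Promoters of early program genes are shown because genes of the axoneme shared a sequence feature there. RFX factors bind the X-box, whose half-site reads GTTGCC. The windows are the 250 bases before the annotated start of each gene, from RefSeq on GRCm38.p6, printed 5′ to 3′ on the strand of the gene, with a half-site on either strand in capitals. The matches began 79 bases before the start in Deup1, 219 in Ccno, 195 in Mcidas and 152 in Ccdc153, the one selecting gene of this set. A second start of Deup1 and the window of Tmem212 held no match; Foxj1 and Rsph1 had no window to search.
Deup1, chr9:15627847-15628096, minus strand: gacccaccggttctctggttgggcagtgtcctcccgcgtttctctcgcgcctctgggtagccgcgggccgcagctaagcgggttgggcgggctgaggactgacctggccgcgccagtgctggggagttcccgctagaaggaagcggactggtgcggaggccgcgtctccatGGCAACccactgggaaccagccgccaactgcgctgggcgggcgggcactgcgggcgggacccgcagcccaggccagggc
Ccno, chr13:112987552-112987801, plus strand: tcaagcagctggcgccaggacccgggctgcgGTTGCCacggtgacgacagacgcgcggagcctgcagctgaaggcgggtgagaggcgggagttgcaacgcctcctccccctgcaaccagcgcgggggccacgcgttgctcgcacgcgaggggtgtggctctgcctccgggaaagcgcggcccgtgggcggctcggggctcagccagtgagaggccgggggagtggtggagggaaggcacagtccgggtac
Mcidas, chr13:112993618-112993867, plus strand: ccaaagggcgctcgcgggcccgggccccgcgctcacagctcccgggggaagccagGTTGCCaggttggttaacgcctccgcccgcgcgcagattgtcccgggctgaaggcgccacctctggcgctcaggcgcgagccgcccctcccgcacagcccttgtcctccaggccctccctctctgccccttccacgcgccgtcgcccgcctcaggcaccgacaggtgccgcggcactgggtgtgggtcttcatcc
Ccdc153, chr9:44240427-44240676, plus strand: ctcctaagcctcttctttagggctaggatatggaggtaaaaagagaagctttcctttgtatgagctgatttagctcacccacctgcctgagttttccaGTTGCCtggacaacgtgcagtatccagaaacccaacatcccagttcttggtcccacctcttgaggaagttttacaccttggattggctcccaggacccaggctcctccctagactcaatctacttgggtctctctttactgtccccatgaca

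A half-site was present before 35 of the 90 genes with a window in the dynein, spoke and axoneme lists (38.9%), against 3195 of all 27025 genes with a window (11.8%). It was present before 4 of 13 deuterosome and centriole genes (30.8%), 7 of 32 genes of IFT and the BBSome (21.9%), 3 of 17 radial glia genes (17.6%) and 2 of 33 complex I genes (6.06%). The forkhead core TGTTTAC, which shares the stretch GTT with the half-site, was found before 6 of the 90 axoneme genes (6.67%), against 956 of all 27025 genes (3.54%). Both spellings were searched on both strands and were chosen after several had been counted, so the shares are descriptions of these windows and carry no test.

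Genes that start multiciliogenesis and build centrioles were higher in ependymal cells than in radial glia and astrocytes, and some, such as Deup1 and Mcidas, were nearly absent from radial glia. The 15 deuterosome and centriole genes summed to 1831 to 2834 CPM in ependymal cells, against 345.4 to 438.5 CPM in radial glia and 332.4 to 392.1 CPM in astrocytes. Ependymal cells were compared with 1103 radial glia (at least 2 UMIs each of Hopx and Slc1a3, and none of Aqp4) and 1582 maturing astrocytes (at least 2 UMIs each of Aqp4 and Slc1a3) of the same libraries. Both reference classes were defined with 0 UMIs of the 4 selecting genes, Folr1, Kcnj13, Mki67 and Top2a. Ciliary genes that go with the selecting genes therefore had to differ between the classes, and their differences describe the choice of cells. The conditions on the reference classes also raise glial genes that go with Hopx, Slc1a3 or Aqp4 there. They lower genes of dividing cells, since cells with Mki67 or Top2a were left out. Such differences describe in part the choice of cells. Over all genes, 27.2% of 10633 were called higher and 28.4% lower in ependymal cells than in radial glia (edgeR quasi-likelihood test, Benjamini-Hochberg adjusted p under 0.05, library as a block). Against astrocytes, 28.4% of 11047 genes were called higher and 30.4% lower. Against radial glia the calls were 2894 higher and 3015 lower, and with DESeq2 2787 higher and 1811 lower.

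Deup1, the deuterosome scaffold, had 579, 434, 596, 399 and 502 CPM in ependymal cells of KO 2, KO 3, WT 1, WT 2 and WT 3, against 0.535, 0, 0.830, 0 and 0 CPM in radial glia of the same libraries. Every ependymal value exceeded every radial glia value by far, with a log2 fold change of 10.23 ± 0.22 (SE, n = 5 libraries, adjusted p = 8.64e-13). A UMI of Deup1 was found in 181 of the 255 ependymal cells (71.0%), against 0.272% of radial glia, 0.506% of astrocytes and 0.671% of 8637 neurons, whose median depth was 13970, 7530, 8910 and 11884 UMIs in that order. Ccno, a cyclin-like protein needed for centriole amplification, had 266, 108, 308, 177 and 151 CPM in ependymal cells, against 1.604, 1.80, 0.415, 1.31 and 0 CPM in radial glia (log2 fold change 7.60 ± 0.27, adjusted p = 3.42e-11). Plk4, the kinase that triggers centriole duplication in every cycling cell, had 268, 100.2, 196, 195 and 164 CPM in ependymal cells, against 8.55 to 13.6 CPM in radial glia. Radial glia were chosen without Mki67 and Top2a, so values of genes tied to the cell cycle, Plk4 among them, describe in part the choice of cells. All 14 tested genes of the deuterosome and centriole list were higher in ependymal cells than in radial glia, with a median log2 fold change of 2.92, against a median of -0.07 over all genes.

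Of the transcription factors, Myb, which acts early in the multiciliated program, had 455, 314, 493, 244 and 352 CPM in ependymal cells, against 0.535 to 4.57 CPM in radial glia (log2 fold change 6.94 ± 0.22, adjusted p = 1.51e-11). Mcidas had 96.5, 29.7, 88.5, 55.0 and 69.9 CPM in ependymal cells and was at 0 in radial glia of every library except WT 3, with 0.588 CPM. Foxn4, a forkhead factor of multiciliated cells in frog skin, had 23.5 to 44.0 CPM in ependymal cells and was at 0 in the radial glia of all 5 libraries. Trp73, a p53 relative needed for ependymal cilia, had 41.9, 37.1, 47.6, 68.9 and 44.2 CPM in ependymal cells, against 5.88, 2.70, 6.23, 0.874 and 0 CPM in radial glia. Rfx2 averaged 66.2 ± 13.5 CPM in ependymal cells and 5.26 ± 1.25 CPM in radial glia, and Rfx3 averaged 126 ± 11.3 CPM in ependymal cells and 45.7 ± 8.27 CPM in radial glia (SD, n = 5 each). Rfx3, unlike Mcidas and Deup1, was thus well detected in these radial glia, whereas Rfx2 was low there. These radial glia were chosen without UMIs of the selecting genes, which shapes this contrast in part. Of 11 tested factors, 8 were higher in ependymal cells than in radial glia and none was lower.

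Structural genes of the cilium followed the selecting genes from cell to cell. Dynlrb2, a dynein light chain, had 801, 922, 811, 541 and 1135 CPM in ependymal cells, against 0.535 to 4.98 CPM in radial glia. Tppp3, a tubulin-binding protein, had 484, 510, 639, 397 and 666 CPM in ependymal cells, against 5.68 to 17.6 CPM in radial glia. Zmynd10, which helps to assemble dynein arms, had 189 to 292 CPM in ependymal cells, against 0 to 2.91 CPM in radial glia. WT 2 was lowest for Dynlrb2, Tppp3 and Zmynd10 alike. Against radial glia, all 32 genes for dynein arms and their assembly, all 18 tested genes for spokes and the central pair and 53 of 54 other axoneme genes were higher, with median log2 fold changes of 5.28, 6.12 and 6.24. Genes of IFT and the BBSome, which also serve the primary cilium that radial glia carry, were higher by less, with 33 of 36 called and a median of 1.84. Ift172, a core IFT protein, averaged 96.4 ± 23.7 CPM in ependymal cells and 7.40 ± 2.99 CPM in radial glia, and Ift57 averaged 134 ± 26.2 CPM in ependymal cells and 80.4 ± 10.5 CPM in radial glia. Several genes of no list that had the largest changes were at 0 in the radial glia of all 5 libraries. Among them Crip3, a LIM-domain protein gene, had 52.4, 174, 157, 82.8 and 160 CPM in ependymal cells, and Slc17a8, the vesicular glutamate transporter VGLUT3, had 75.5, 90.9, 72.7, 54.2 and 78.7 CPM.

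**Figure D2:**
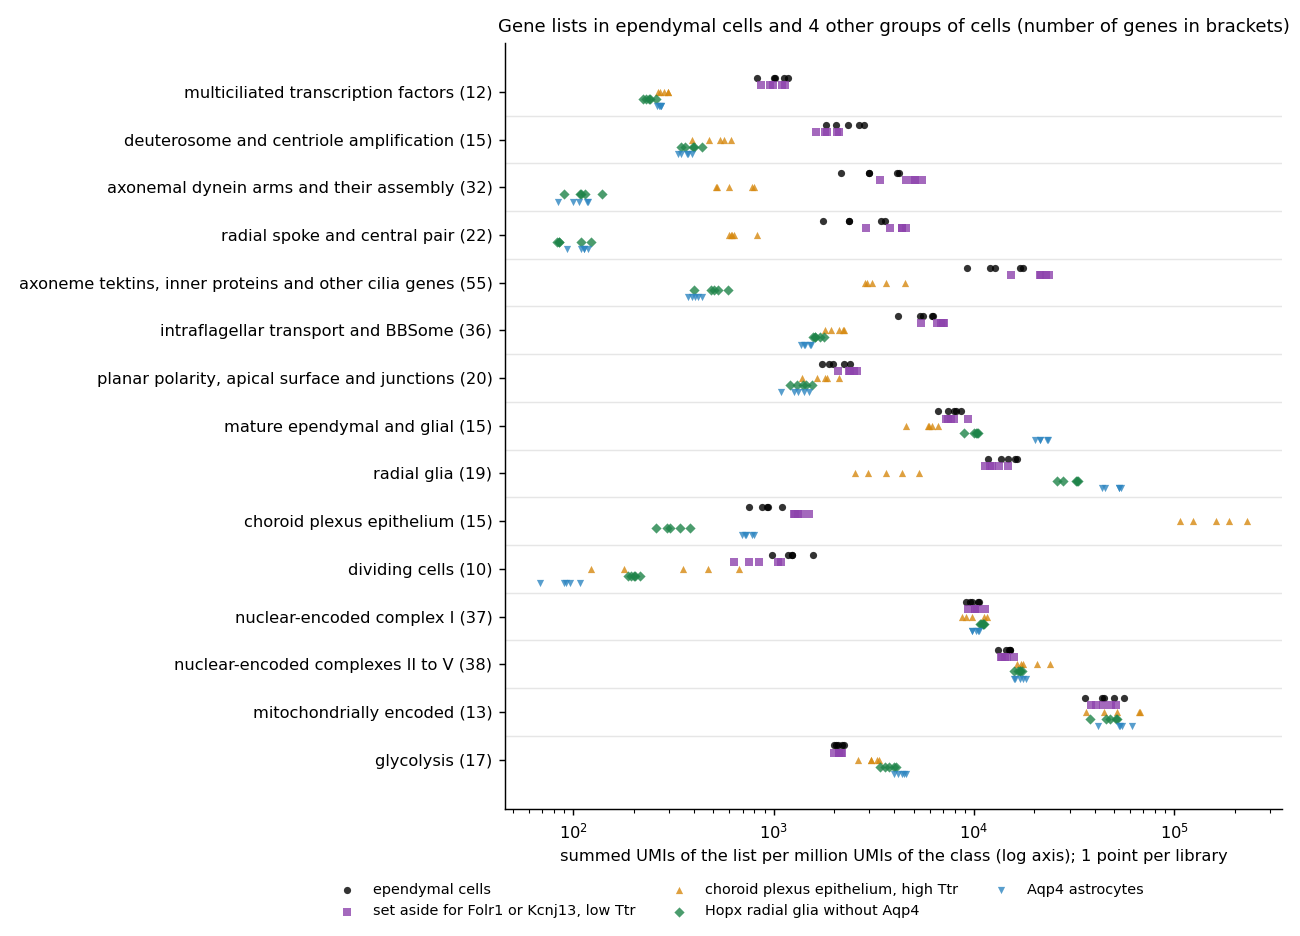
Summed CPM of 15 gene lists (log axis, 1 point per library) in ependymal cells, in the ciliated cells set aside for Folr1 or Kcnj13, in choroid plexus epithelium, in radial glia and in astrocytes. Ependymal cells lie above radial glia and astrocytes for all 6 cilia lists and below them for the radial glia and glycolysis lists.

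Pooled sums of deuterosome and dynein genes took different courses when the 255 cells were ranged by their UMIs of the selecting genes. The 15 deuterosome and centriole genes summed to 569 CPM in cells with 4 to 9 selecting UMIs, 1800 CPM with 10 to 19, 3145 CPM with 20 to 49 and 2832 CPM with 50 or more. The 32 dynein genes summed to 689, 2024, 3376 and 4767 CPM over the same bins. Between the bins of 20 to 49 and of 50 or more, the deuterosome sum did not rise, whereas the dynein sum did. Each bin pooled the cells of all libraries in unequal parts. WT 3 gave 3 of the 24 cells with 10 to 19 selecting UMIs, 32 of the 78 with 20 to 49 and 30 of the 81 with 50 or more. The bins were not compared within single libraries, and dynein genes go with the selecting genes that made the bins. Deup1 itself had 28.1, 358, 725 and 635 CPM, and Myb had 36.3, 278, 556 and 423 CPM. Radial glia genes went the other way above the second bin, with 20010, 24670, 13160 and 9692 CPM, and glycolysis genes summed to 2935, 2760, 1849 and 1723 CPM. Hdc had 10.9, 50.2, 95.9 and 232 CPM. Bins by UMIs of 4 genes also differ in depth, with median UMIs per cell of 10515.5, 10989, 13153 and 20721. Across the 255 cells, Spearman's rho with the share of selecting UMIs was 0.93 for the axoneme list, 0.85 for dynein genes and 0.55 for deuterosome genes, and -0.49 for radial glia genes and -0.55 for glycolysis genes. These correlations are descriptions over cells that share libraries and depth. The dynein value was 0.75 to 0.92 within single libraries, whereas the deuterosome value was 0.20 in WT 3 and 0.48 to 0.84 in the other 4.

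**Figure D3:**
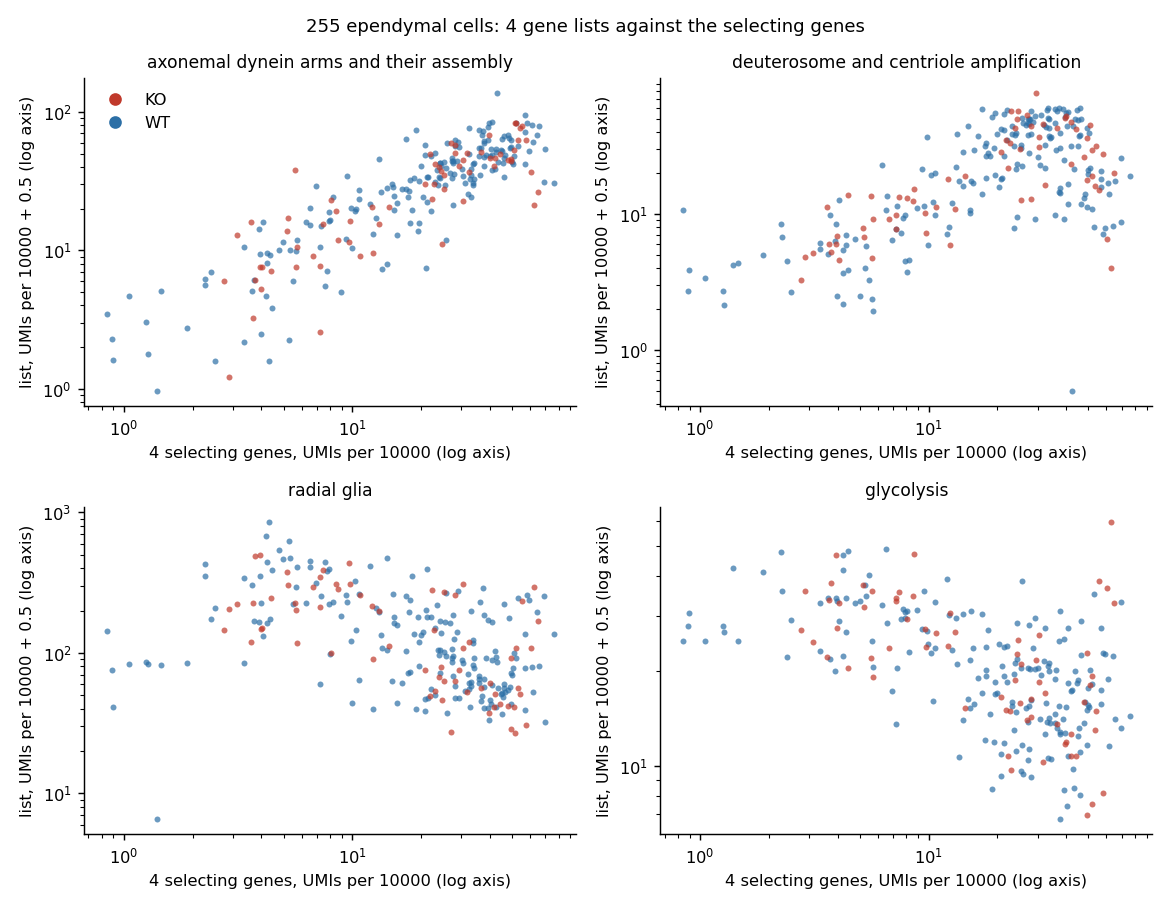
Levels of 4 gene lists (with 0.5 added) against the level of the selecting genes, each as UMIs scaled to the cell's total and both on log axes, 1 point per ependymal cell, KO in red and WT in blue. The dynein list rises along the whole range and the radial glia and glycolysis lists fall, with KO and WT cells intermingled.

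Genes of the radial glial state were lower in ependymal cells. Fabp7, the brain lipid-binding protein of radial glia, had 5003, 2340, 4848, 4178 and 1816 CPM in ependymal cells of KO 2, KO 3, WT 1, WT 2 and WT 3, against 14430, 10370, 13350, 14750 and 8174 CPM in radial glia. The classes did not overlap, and the log2 fold change was -1.88 ± 0.12 (SE, n = 5 libraries, edgeR adjusted p = 1.43e-08). Of 17 tested radial glia genes, 12 were lower in ependymal cells than in radial glia and none was higher, with a median log2 fold change of -0.66. Over all genes 28.4% were called lower. Radial glia were chosen by Hopx and Slc1a3, so values of genes that go with these genes describe in part the choice of cells. The neural stem cell factor Sox2 was not called, at 378 ± 56.2 CPM in ependymal cells and 415 ± 37.4 CPM in radial glia, and the gliogenic factor Sox9 averaged 468 ± 80.0 CPM in ependymal cells and 465 ± 56.0 CPM in radial glia. Among the largest differences were Thrsp, a regulator of lipid synthesis, with 20.9 to 56.6 CPM in ependymal cells, against 575 to 879 CPM in radial glia, and Tesc, a calcium-binding protein, with 5.62 to 26.0 CPM in ependymal cells, against 216 to 294 CPM in radial glia. Gfap, the intermediate filament of astrocytes and stem cells, had 122, 167, 174, 273 and 90.7 CPM in ependymal cells, against 310, 305, 339, 268 and 283 CPM in radial glia. Only WT 2 overlapped, and Gfap was called lower (log2 fold change -0.96 ± 0.18, adjusted p = 4.61e-04). Hdc, in contrast, had 44.0, 254, 128, 79.2 and 165 CPM in ependymal cells, against 0 to 1.18 CPM in radial glia. Planar polarity genes align the cilia of neighbouring cells, and among them Celsr1 and Celsr2 differed in direction. Celsr1 averaged 81.6 ± 16.03 CPM in ependymal cells and 52.7 ± 7.15 CPM in radial glia (log2 fold change 0.55 ± 0.13, adjusted p = 0.00222). Its relative Celsr2 averaged 53.9 ± 8.27 CPM in ependymal cells and 77.0 ± 12.1 CPM in radial glia (log2 fold change -0.57 ± 0.14, adjusted p = 0.00405), a call that DESeq2 did not make. In the polarity and apical list 7 of 18 tested genes were higher and 2 lower than in radial glia, against 27.2% higher and 28.4% lower over all genes. Fold changes were above 0 for 14 of the 18 and below 0 for 4, with a median of 0.39, against -0.07 over all genes.

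Glial transcripts were also lower in ependymal cells than in astrocytes. Apoe, the lipid carrier of astrocytes, had 2556, 3076, 3270, 2355 and 2054 CPM in ependymal cells, against 11250, 13570, 13020, 11920 and 11080 CPM in astrocytes, a log2 fold change of -2.42 ± 0.09 (edgeR adjusted p = 2.08e-13). Gfap had 90.7 to 273 CPM in ependymal cells, against 779 to 1026 CPM in astrocytes, and Fabp7 had 1816 to 5003 CPM in ependymal cells, against 19000 to 29790 CPM in astrocytes. Pla2g3, a secreted phospholipase, and Serpinf1, a secreted serpin, were nearly absent, with 0 to 2.41 and 0 to 12.1 CPM in ependymal cells, against 70.9 to 144 and 172 to 237 CPM in astrocytes. Of 17 tested radial glia genes, 14 were lower in ependymal cells than in astrocytes, with a median of -1.04. Over all genes 30.4% were called lower. Astrocytes were chosen by Aqp4 and Slc1a3, so values of genes that go with these genes describe in part the choice of cells. Clu, a secreted chaperone shared by both types, averaged 679 ± 135 CPM in ependymal cells and 562 ± 61.0 CPM in astrocytes and was not called. Of 15 tested immediate early and heat shock genes, which respond to dissociation as well as to activity, 11 were lower than in astrocytes, whereas 4 were higher and 4 lower than in radial glia. Over all genes, 27.2% were called higher and 28.4% lower than in radial glia, close to the shares of this list. The part of dissociation in these values was not tested.

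Many glycolysis and nuclear-encoded respiratory chain genes were lower in ependymal cells than in radial glia, astrocytes and choroid cells, which did not hold for the mitochondrially encoded genes against radial glia. Aldoc, the brain isoform of aldolase, had 241, 239, 218, 205 and 124 CPM in ependymal cells of KO 2, KO 3, WT 1, WT 2 and WT 3, against 1036, 800, 925, 975 and 872 CPM in radial glia and 1469, 1088, 1341, 1464 and 1238 CPM in astrocytes. The values did not overlap, with log2 fold changes of -2.26 ± 0.12 against radial glia and -2.93 ± 0.12 against astrocytes (adjusted p = 2.95e-09 and 6.74e-13). Aldoc is a glial gene as much as a metabolic one and stands in both lists, but glycolytic enzymes of general use were also lower. Gapdh had 476, 486, 556, 645 and 512 CPM in ependymal cells, against 999, 778, 887, 936 and 859 CPM in radial glia (log2 fold change -0.79 ± 0.10, adjusted p = 8.71e-06). Pkm, pyruvate kinase, averaged 161 ± 30.5 CPM in ependymal cells and 335 ± 23.3 CPM in radial glia, and Eno1, enolase, averaged 80.0 ± 3.00 CPM in ependymal cells and 184 ± 22.9 CPM in radial glia. Of 16 tested glycolysis genes, 12 were lower and 1 higher than in radial glia, with a median log2 fold change of -0.75, and 12 were lower and 1 higher than in astrocytes, with a median of -0.90. Cox8a, a subunit of cytochrome oxidase, had 531, 685, 687, 747 and 736 CPM in ependymal cells, against 865, 917, 1022, 944 and 879 CPM in radial glia (log2 fold change -0.51 ± 0.09, adjusted p = 4.01e-04). In the nuclear-encoded complexes II to V, 22 of 38 genes were lower and 1 higher than in radial glia, and 28 lower and 1 higher than in astrocytes, with medians of -0.31 and -0.46. Complex I had 19 of 37 genes lower and 4 higher than in radial glia, and 23 lower and 4 higher than in astrocytes. Of the 13 mitochondrially encoded genes, 2 were higher and 2 lower than in radial glia, and 9 were lower and none higher than in astrocytes. Over all genes, 27.2% were called higher and 28.4% lower than in radial glia, and 28.4% higher and 30.4% lower than in astrocytes. With DESeq2 the glycolysis medians were -0.71 against radial glia and -0.78 against astrocytes, and those of complexes II to V were -0.28 and -0.44, while the median over all genes moved to 0.19 and 0.28.

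Choroid plexus epithelium, which also carries multiple cilia, was the third class compared. The planned gate, at least 4 UMIs of Folr1, Kcnj13, Clic6 and Kl with 2 of them detected, gave 98 cells, and 20.4% of 8811 genes were called between them and ependymal cells, 777 higher and 1018 lower in ependymal cells (357 higher and 731 lower with DESeq2). That gate mixed 44 cells with 329 or more UMIs of Ttr and 54 cells with at most 40, with a median of 6 UMIs of the selecting genes in the 44 cells and 190.5 in the 54. Genes are therefore given for the 44 cells with high Ttr, a restriction chosen after seeing the data. Against these 44 cells 20.4% of 6857 genes were called higher in ependymal cells and 21.5% lower. Fold changes against these 44 cells are on edgeR's TMM scale from a fit without Ttr, whereas CPM count Ttr in the total. These fold changes can therefore differ from ratios of CPM.

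Kcne2, Aqp1 and Car14 were among the genes with the largest changes between ependymal and choroid cells. Kcne2, a potassium channel subunit, was at 0 in the ependymal cells of all 5 libraries, against 264, 172, 551, 256 and 141 CPM in choroid cells of KO 2, KO 3, WT 1, WT 2 and WT 3. Aqp1, the choroid water channel, had 1 UMI in all ependymal cells, against 172 to 395 CPM in choroid cells, and Car14, a carbonic anhydrase, had 3 UMIs, against 188 to 261 CPM. Anxa1, an annexin, had 166, 64.9, 81.9, 57.9 and 132 CPM in ependymal cells and was at 0 in the choroid cells of all 5 libraries. Deup1 had 399 to 596 CPM in ependymal cells, against 0 to 52.8 CPM in choroid cells (log2 fold change 4.32 ± 0.44, adjusted p = 7.69e-06). Myb had 244 to 493 CPM in ependymal cells, against 9.76 to 26.4 CPM in choroid cells. Of 13 tested deuterosome and centriole genes 12 were higher in ependymal cells, and of 29 dynein genes 27, both lists being tied to the selecting genes. Radial glial and astroglial transcripts were also higher in ependymal cells, with 12 of 19 radial glia genes higher and 2 lower. Fabp7 had 1816 to 5003 CPM in ependymal cells, against 62.7 to 1073 CPM in choroid cells (log2 fold change 3.21 ± 0.57, adjusted p = 6.26e-04), and Gfap had 90.7 to 273 CPM in ependymal cells, against 3.30 to 10.9 CPM in choroid cells. Glycolysis and oxidative genes were lower here too. Cox8a had 531 to 747 CPM in ependymal cells, against 1444 to 2566 CPM in choroid cells (log2 fold change -1.79 ± 0.19, adjusted p = 8.74e-06), and Pgk1, phosphoglycerate kinase, had 105 to 149 CPM in ependymal cells, against 191 to 259 CPM in choroid cells. In the glycolysis list 11 of 14 genes were lower and 1 higher, and in complexes II to V 27 of 38 were lower and none higher.

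Ependymal cells with deuterosome transcripts were higher in several mitotic genes and lower in radial glia genes than those without. A UMI of Deup1, Ccno, Cdc20b, Mcidas, Ccdc78 or Gmnc was found in 197 cells and in none of the other 58. The 2 sets were compared in KO 3 and WT 1 to 3, since KO 2 had only 2 cells without such a UMI. The median depth was 15766 UMIs in cells with a deuterosome UMI and 10113 UMIs in cells without, so a gap in depth goes with the split, and the cells without include most of the low cells described above. Markers of other cell types differed too, in a direction that changed with the library. The microglial genes summed to 17.95 CPM in cells with a deuterosome UMI and 2767 CPM in cells without in WT 1. The endothelial genes summed to 411 CPM with and 880 CPM without in WT 2. In WT 3 the microglial genes summed to 142 CPM with and 0 CPM without, and the endothelial genes to 221 CPM with and 0 CPM without. The part of these markers in the differences below was not tested. Of 6505 genes, 9.3% were called higher and 6.75% lower in cells with a deuterosome UMI. Genes that go with the deuterosome genes of the split had to differ between the sets, here and below. Their differences, such as those of Plk4, Stil, Hyls1, Foxn4 and Ccna1, describe in part the choice of cells. Plk4 had 129, 215, 249 and 192 CPM in cells with a deuterosome UMI of KO 3, WT 1, WT 2 and WT 3, against 7.87, 45.2, 29.6 and 0 CPM in cells without (log2 fold change 3.26 ± 0.40, n = 4 libraries, edgeR adjusted p = 5.78e-05). Stil, another centriole duplication protein, had 80.1, 120, 73.0 and 87.5 CPM in cells with a deuterosome UMI, against 7.87, 0, 2.96 and 0 CPM in cells without. Hyls1, a centriolar protein needed for cilium formation, had 89.8 to 148 CPM in cells with a deuterosome UMI, against 0 to 7.87 CPM in cells without. Foxn4 had 28.2 to 49.4 CPM in cells with a deuterosome UMI and was at 0 in the cells without in all 4 libraries. Plvap, known as a diaphragm protein of endothelium, had 107, 144, 107 and 153 CPM in cells with a deuterosome UMI, against 0, 0, 0 and 5.49 CPM in cells without. It was found in 127 of the 255 cells, whereas the endothelial gene Cldn5 was found in 17.

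Cell-cycle genes did not move together across this split. Top2a, the topoisomerase of dividing cells, had 658, 628, 426 and 435 CPM in cells with a deuterosome UMI of KO 3, WT 1, WT 2 and WT 3, against 94.4, 158, 193 and 60.4 CPM in cells without (log2 fold change 1.91 ± 0.28, adjusted p = 2.08e-04). Cdk1, the mitotic kinase, had 163, 212, 209 and 144 CPM in cells with a deuterosome UMI, against 23.6, 45.2, 91.9 and 38.5 CPM in cells without (log2 fold change 1.62 ± 0.28, adjusted p = 8.41e-04). Neither gene overlapped between the sets. Ccnb1, a mitotic cyclin, was also higher (log2 fold change 1.81 ± 0.37, adjusted p = 0.00303), and so was Ccna1, the cyclin A of germ cells (log2 fold change 3.82 ± 0.54, adjusted p = 1.85e-04). Mki67, which marks all cycling cells, had 31.6, 132, 40.9 and 17.9 CPM in cells with a deuterosome UMI, against 23.6, 147, 142 and 27.5 CPM in cells without. The sets overlapped, and the log2 fold change of -1.0 ± 0.34 missed the threshold (adjusted p = 0.0528). Pcna, the clamp of replicating DNA, had 48.6, 103, 64.3 and 49.9 CPM in cells with a deuterosome UMI, against 110, 316, 88.9 and 87.9 CPM in cells without, and was called lower (log2 fold change -1.14 ± 0.27, adjusted p = 0.00742). The Pcna call was lost without the cells of high doublet score, where the log2 fold change was -0.50, and without KO replicate 3 or WT replicate 1 or with no library term. Of 8 tested genes of the dividing cell list, 4 were higher and 1 lower, with a median log2 fold change of 0.89, which was -0.10 over 10 genes with no filter on low counts. Among all 255 cells, Top2a had a UMI in 168 and Mki67 in 65, and 108 cells had Top2a without Mki67. Over the bins of selecting UMIs, Top2a had 136, 221, 551 and 582 CPM, whereas Mki67 had 110, 110, 41.1 and 27.1 CPM.

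**Figure D4:**
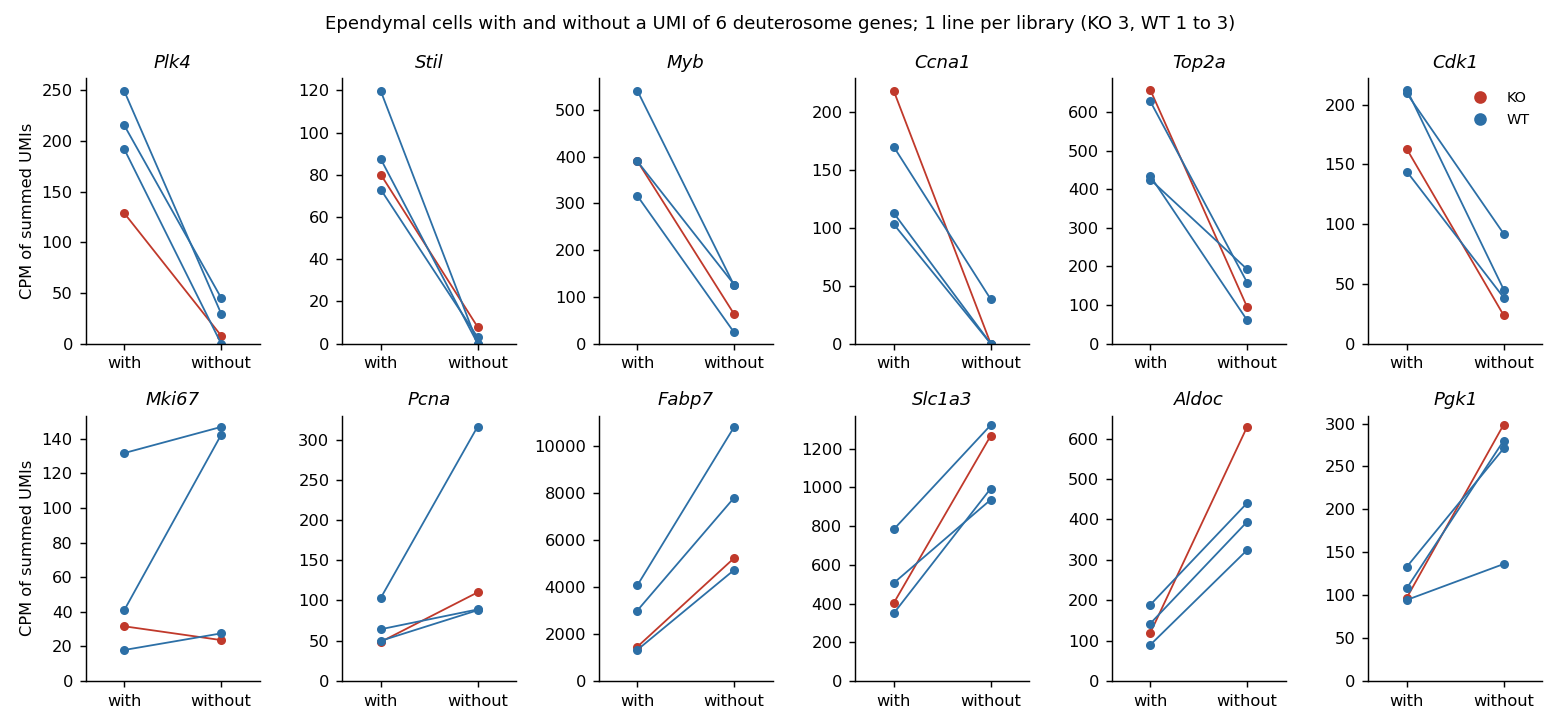
CPM of 12 genes in ependymal cells with and without a UMI of 6 deuterosome genes, 1 line per library (KO 3 in red, WT 1 to 3 in blue). Plk4, Stil, Myb, Ccna1, Top2a and Cdk1 are higher in cells with a deuterosome UMI in all 4 libraries, and Fabp7, Slc1a3, Aldoc and Pgk1 are lower in all 4.

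Radial glia, cortical hem and glycolysis genes were lower in cells with a deuterosome UMI. Fabp7 had 1450, 4060, 2991 and 1319 CPM in cells with a deuterosome UMI, against 5224, 10800, 7791 and 4719 CPM in cells without (log2 fold change -1.75 ± 0.24, edgeR adjusted p = 1.40e-04). The libraries differed widely, and each was lower in its cells with a deuterosome UMI. Hopx, a homeodomain protein of radial glia, had 85.3 to 104 CPM in cells with a deuterosome UMI, against 181 to 330 CPM in cells without, and Gfap had 64.0 to 153 CPM, against 247 to 762 CPM. Of 19 radial glia genes 11 were lower and none higher, with a median log2 fold change of -0.83, against -0.01 over all genes. The R-spondins, secreted enhancers of Wnt signalling made by the cortical hem, were among the largest differences. Rspo3 had 31.6, 47.9, 56.5 and 21.6 CPM in cells with a deuterosome UMI, against 173, 136, 219 and 214 CPM in cells without (log2 fold change -2.43 ± 0.27, adjusted p = 3.23e-05), and Rspo1 and Rspo2 were lower by -2.54 ± 0.40 and -2.56 ± 0.37. Only 42 of the 255 cells held Rspo3. In the cortical hem list 5 of 8 tested genes were lower. Aldoc had 119, 189, 142 and 89.4 CPM in cells with a deuterosome UMI, against 629, 441, 394 and 324 CPM in cells without, and 9 of 13 glycolysis genes were lower with none higher (median -0.90). With DESeq2 the count for glycolysis was 4 of 17, with a median of -0.80. None of the 38 genes of complexes II to V was called, and of the 37 complex I genes 1 was higher and 1 lower. Without the cells of high doublet score, 2 genes of complexes II to V were higher and 2 lower, and 5 of complex I were higher and 1 lower.

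Ependymal cells made up 0.536% and 0.654% of kept cells in KO 2 and KO 3, against 0.723%, 1.21% and 1.01% in WT 1, WT 2 and WT 3. Both KO libraries lay below all WT libraries, with exact 95% binomial intervals of 0.362 to 0.764% and 0.458 to 0.904% for KO, and 0.530 to 0.963%, 0.917 to 1.56% and 0.809 to 1.25% for WT, which cover counting error only. The mean was 0.595 ± 0.0835% in KO (SD, n = 2) and 0.981 ± 0.244% in WT (SD, n = 3), a difference of -0.386 percentage points (two-sided exact permutation test, p = 0.2). With 2 libraries against 3 the smallest p this test allows is 0.1, so the design cannot reach 0.05. The order depended on the cells counted alongside. Per 100 astrocytes and radial glia there were 6.91 and 10.3 ependymal cells in the KO libraries, against 5.74, 10.9 and 15.01 in the WT libraries, which overlapped (exact permutation p = 0.7). Cells with 10 or more selecting UMIs were 0.393% and 0.381% of kept cells in KO, against 0.581%, 0.806% and 0.764% in WT (exact permutation p = 0.2). With the condition on Folr1 and Kcnj13 replaced by a limit of 100 Ttr UMIs, the shares were 1.36% and 1.83% in KO, against 1.84%, 2.88% and 2.86% in WT (exact permutation p = 0.2). With 3 of the selecting genes required, or with the cells of high doublet score removed, the groups overlapped (exact permutation p = 0.3 in both).

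No gene passed the test between KO and WT ependymal cells as designed. Of 9527 genes, 0 were called (0%), by edgeR and by DESeq2, while 228 had an unadjusted edgeR p under 0.05, 71 of them higher and 157 lower in KO. With a term for how many pups were male 2 genes were called, Selenop and the haemoglobin gene Hbb-bs, both lower in KO (adjusted p = 0.0268 each), and with no filter on low counts 104 were called, 101 of them lower. The genes with the smallest p are given as values only, each with an adjusted p of 0.999 in the fit as designed. Azin2, an inhibitor of antizymes in polyamine metabolism, had 50.3 and 50.1 CPM in KO 2 and KO 3, against 23.8, 23.5 and 20.9 CPM in WT 1, WT 2 and WT 3 (log2 fold change 1.09 ± 0.28). Siah2, a ubiquitin ligase, had 41.9 and 59.4 CPM in KO, against 26.4, 18.3 and 20.9 CPM in WT (1.19 ± 0.32). In both genes the groups did not overlap, and the UMIs came from 92 and 83 cells. Selenop, a secreted selenium carrier, had 6.29 and 1.86 CPM in KO, against 33.0, 104 and 43.4 CPM in WT (-3.97 ± 0.81). That difference rested on 4 UMIs in 4 KO cells, against 221 UMIs in 34 WT cells, 3 of which held 35.1% of the gene's UMIs. Vtn, a matrix protein that mural cells secrete, was at 0 in both KO libraries, against 7.93, 21.2 and 16.1 CPM in WT, from 55 UMIs in 13 WT cells. Summed markers of endothelium, erythroid cells, microglia, mural cells and oligodendrocyte precursors lay lower in both KO libraries than in all WT libraries. Those of neurons, meningeal fibroblasts, choroid plexus and cortical hem overlapped between the genotypes. The share of genes without overlap among all genes is not given here, so these sums describe values only. The 5 endothelial genes summed to 16.8 and 16.7 CPM in KO, against 21.1, 527 and 189 CPM in WT. The 5 erythroid genes summed to 4.19 and 12.99 CPM in KO, against 23.8, 622 and 62.6 CPM in WT, and the 11 microglial genes to 10.48 and 12.99 CPM in KO, against 340, 13.9 and 121 CPM in WT. The 5 mural cell genes, Vtn among them, summed to 90.2 and 35.3 CPM in KO, against 100.4, 199 and 139 CPM in WT, and the 5 genes of oligodendrocyte precursors to 6.29 and 5.57 CPM in KO, against 79.3, 27.9 and 49.8 CPM in WT. The nearest KO and WT values were 12.99 and 13.9 CPM for microglial genes and 16.8 and 21.1 CPM for endothelial genes. All 68 UMIs of the complement gene C1qb came from 2 WT cells. The part of such cells in the lower genes was not tested.

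Among genes of the ependymal program none was called between KO and WT. Deup1 had 579 and 434 CPM in KO, against 596, 399 and 502 CPM in WT, a log2 fold change of -0.02 ± 0.22. Dynlrb2 had 801 and 922 CPM in KO, against 811, 541 and 1135 CPM in WT (0.02 ± 0.28). Both genes overlapped between the genotypes, and standard errors of 0.22 and 0.28 leave room for changes larger than these errors in either direction. Of the dynein genes 27 of 32 had fold changes above 0, with a median of 0.21, as did 42 of 55 other axoneme genes (0.11), 15 of 19 spoke genes (0.14) and 24 of 36 genes of IFT and the BBSome (0.15), against a median of -0.01 over all genes. None was called. The 4 selecting genes had a median of 0.23 and summed to 2126 and 3284 CPM in KO, against 2248, 1606 and 3060 CPM in WT. WT 2 was lowest in this sum and in the sums of these cilia lists. The part of the choice of cells in the medians of the cilia lists was not tested. Zmynd10 had 292 and 269 CPM in KO, against 203, 189 and 244 CPM in WT (0.35 ± 0.19). Among the list members with the smallest p, Rfx2, Cep63, Ccdc103, Dnaaf5, Ift172, Wdr34 and Celsr1 also lay higher in both KO libraries than in all WT libraries, and Trp73 and Iqub lay lower in both. A choice by small p favours groups that do not overlap. The share of such genes among all genes is not given here, so these names describe values only. Among deuterosome and centriole genes 5 of 15 were above 0, with a median of -0.04. Dividing cell genes had the most negative median among the 13 lists drawn, -0.55, with 3 of 10 above 0, but Mki67 had 39.8 and 29.7 CPM in KO, against 133, 66.0 and 19.3 CPM in WT, which overlapped, and Top2a had a log2 fold change of 0.13 ± 0.23.

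**Figure D5:**
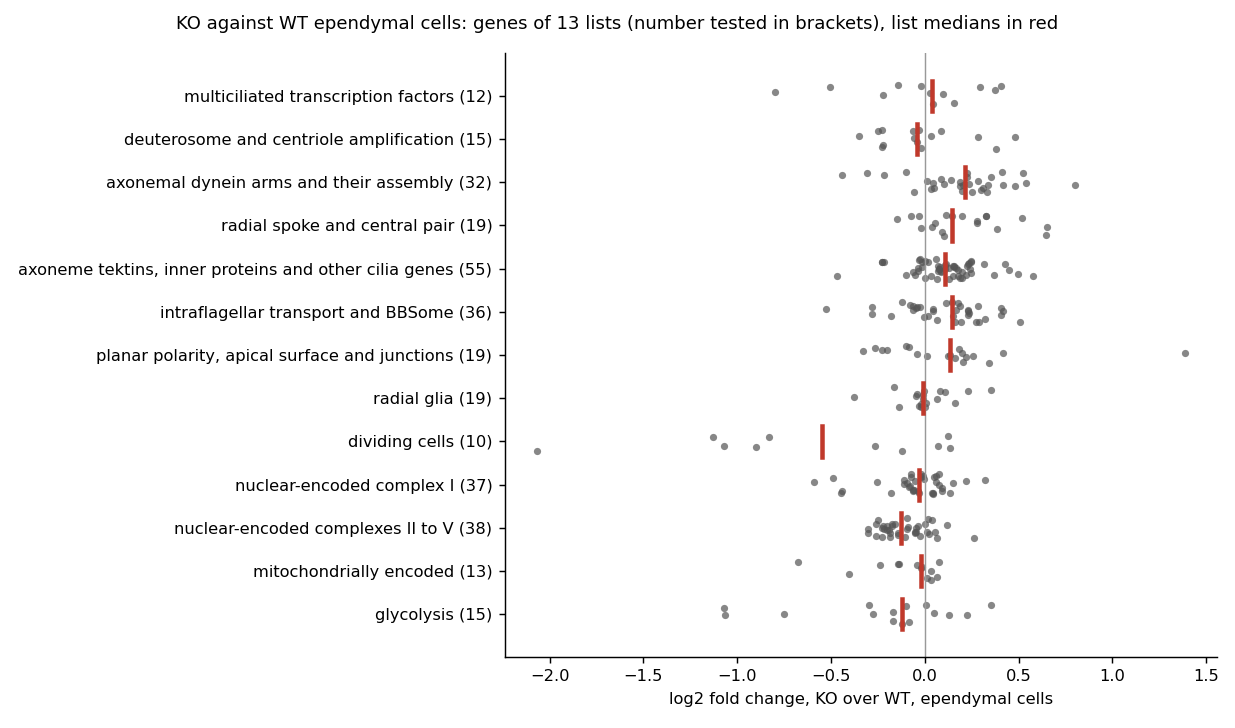
Log2 fold changes of KO over WT ependymal cells for the tested genes of 13 lists, 1 point per gene, with list medians in red. The dynein, spoke and axoneme lists have medians of 0.21, 0.14 and 0.11 and the dividing cell list one of -0.55; no gene was called.

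Energy metabolism, the subject of the study's title, did not differ in called genes between KO and WT ependymal cells either. Of the nuclear-encoded genes, 14 of 37 for complex I and 8 of 38 for complexes II to V had fold changes above 0, with medians of -0.03 and -0.13. Cox8a had 531 and 685 CPM in KO, against 687, 747 and 736 CPM in WT (log2 fold change -0.30 ± 0.20, edgeR adjusted p = 0.999). Ndufb4, a complex I subunit, had 92.3 and 98.3 CPM in KO, against 136, 125 and 156 CPM in WT (-0.59 ± 0.20, adjusted p = 0.999). The groups did not overlap for either gene, although the gap for Cox8a was 685 against 687 CPM. Each had the smallest p of its list, a choice that favours groups that do not overlap. Of the 13 mitochondrially encoded genes 5 were above 0 (median -0.02), and of 15 glycolysis genes 5 were (median -0.12). Aldoc had 241 and 239 CPM in KO, against 218, 205 and 124 CPM in WT (0.35 ± 0.26).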

How the data were processed

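Single cells from papain-dissociated hippocampi were sequenced with the 10x Genomics 3' v3.1 chemistry, per the labels' protocols. The deposited files are raw UMI counts per gene and barcode, made by the authors with Cell Ranger 6.1 on mm10, per the submitters' processing notes; the sources used here do not name the annotation release. For each class, the UMIs of a library's cells were added up, and the sums went into edgeR 4.0.16 (TMM factors, filterByExpr, quasi-likelihood test, Benjamini-Hochberg threshold 0.05), with the library as a block between classes. DESeq2 1.42.0, other filters, other member limits and each library left out were alternatives. Selecting and gate genes were left out of the class fits, as was Ttr against choroid cells with high Ttr. The 78 features that share a symbol were kept apart by their identifiers. The statistical scripts were tested on simulated data. Doublet scores came from Scrublet in scanpy 1.11.5 at a rate of 0.8% per 1000 barcodes; high-scoring cells were kept in the main values. A library, a pool of 2 pups, is the replicate; nothing says whether pools shared a litter, so p-values measure the spread between these libraries. Members and gene lists were chosen with earlier results of these data known. Genes were named as the largest called changes (in KO against WT, the smallest p), the most abundant list members in class fits and the list members with the smallest p in KO against WT. Named outside this rule, after their values were seen, were Foxn4, Trp73, Ift172, Ift57, Gfap, Hdc, Celsr1, Celsr2 and Eno1 against other classes, Ccna1, Mki67 and Hopx in the deuterosome split, and Deup1, Dynlrb2 and Top2a in KO against WT.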

Additional observations from a re-analysis of the deposited data

Results flagged for a closer look

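The summed level of 11 microglial and macrophage genes, set as a log2 ratio of ependymal cells over radial glia of the same library, was -0.32 and -0.57 in KO 2 and KO 3, against 1.06, 0.75 and 3.48 in WT 1, WT 2 and WT 3. Both KO libraries were below 0 and all WT libraries above it, and the KO mean minus the WT mean was -2.21. This difference between the genotypes was not tested, and it was 1 of 72 such ratios looked at. In ependymal cells 3 cells held 86.1% of the UMIs of these genes, and the 2 cells with 10 or more were both WT.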

How the results depend on the processing

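Calls between KO and WT ependymal cells were 0 in the fit as designed, but 104 with no filter on low counts (3 higher, 101 lower in KO), 56 with a replicate block (0 higher, 56 lower) and 2 with a term for how many pups were male, Hbb-bs and Selenop, both lower. Same-numbered libraries had correlations of 0.162 and 0.337 in their deviations from the group means. With only 2 such pairs the numbers do not establish a pairing. Against the planned choroid gate (1795 genes), DESeq2 called 1088, the fit without the highest doublet scores 1167, and fits that left out 1 library between 1170 (without WT replicate 1) and 1545. For the deuterosome split (1044 genes), DESeq2 called 609, and leaving out 1 library gave 454 (without KO replicate 3) to 970, with 492 without WT replicate 2. The cause was not tested. Counts against radial glia, astrocytes and choroid cells with high Ttr stayed within 1.5 times of 5909, 6493 and 2873 in every alternative run, and the share kept its direction, from -0.272 to -0.515 with 1 library left out. No named gene, share or count reversed. Medians of lists changed sign for the cortical hem against radial glia (0.94, and -0.43 with 10 or more selecting UMIs) and, in the deuterosome split, for dividing cells (0.89, and -0.10 with no filter), complex I (-0.13, 0.07 with no filter and 0.04 without high doublet scores) and complexes II to V (-0.17, 0.03 and 0.10). Of the 39 genes followed in the deuterosome split, Ccnb2, Cenpf, Cep152, Fos, Gapdh, Pcna and Sox9 lost their call in at least 1 alternative. The minimum of 10 selecting UMIs, the limit on Ttr and the restriction to choroid cells with high Ttr were chosen after seeing the data. The minimum of 10 was not run for the deuterosome split, where it left too few cells without such a UMI. The KO and WT comparison rests on 30 and 36 KO cells in 2 libraries.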
